A study of Mus musculus with 30 samples.

Results

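The 42 odorant receptor (OR) genes described here lie on chromosome 7 outside the P cluster and belong to the class II receptors. They were chosen from the study's OR naming table by position and name alone: chromosome 7, a MOR family number above 42, which leaves out the class I receptors, and no mark P. They are 42 of the 564 OR genes of the deposited table, and 21 of them carry the mark Ptel. The other 21 carry no mark. No measured value entered the choice. The naming table holds 44 such genes, and Olfr469 and Olfr474 are not analysed here. Olfr504 carries the mark Ptel but has a class I MOR name, MOR40-15, and so falls outside the rule.

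The data are NanoString counts, which tally colour-coded probe pairs bound to RNA without amplification, from whole olfactory mucosa of mice aged 21 days, with 1 mouse and 1 μg of RNA per lane. Of the 5 groups of 6 mice, the wild-type 129 mice (strain 129SvEvTac) and the ΔOlfr7Δ mice, homozygous for an engineered deletion of the Olfr7 cluster on chromosome 9 in inbred 129SvEv, shared cartridge MK38. The other groups were of mixed C57BL/6J x 129SvEv background: the ΔHxΔP mice, double homozygous for the loss of the H and P elements, and their companion wild type shared cartridge MK29, and the companion wild type of the ΔH strain was read on cartridge MK37. Genotype and lane position cannot be told apart on MK38 and MK29, since the wild type took lanes 1 to 6 of each, and genetic background cannot be told apart from cartridge where 129 and mixed mice are compared.

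An OR is the G protein-coupled receptor by which an olfactory sensory neuron detects odorants, and a mature neuron expresses a single OR gene from a single allele. OR genes lie in clusters on many chromosomes, and enhancer elements such as H on chromosome 14 and P on chromosome 7 act on the genes of their own cluster. The count of an OR gene in whole mucosa rises with the number of neurons that express it and with the RNA of that gene per neuron, and these cannot be told apart here.

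The Ptel genes lie on the telomeric side of the P cluster. In the naming table's coordinates, for which the sources used here give no build, they run from 115077036 to 116037934, and the first of them starts 785 kb past the end of the P cluster. Of these 21 genes, Olfr473 to Olfr519, 15 belong to the MOR204 family, 3 to MOR268 and 2 to MOR267, and Olfr513 (MOR195-1) stands alone. The unmarked genes lie in other places: 6 proximal genes (Olfr1344, Olfr1336, Olfr1346, Olfr1347, Olfr1348 and Olfr1350, from 6351425 to 6523630), 8 genes from Olfr309 to Olfr294 (93454695 to 93765153), Olfr520 by itself, and 6 distal genes from Olfr522 to Olfr539 (147347838 to 147854147). The MOR103 genes among the 42 are split between the proximal group, with 4 genes, and the distal group, with Olfr522 and Olfr524, and the family also has genes in the P cluster and on other chromosomes. All 42 symbols are listed as protein coding in RefSeq, although the MOR names of Olfr309, Olfr304 and Olfr524 end in P, which in that nomenclature marks a pseudogene.

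Each gene was read by a capture and a reporter probe. The pairs of the genes that the results turn on are shown as deposited, to show what was counted, with the longest run of bases that also occurs in a probe of another OR gene of the table in capitals.

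Olfr491 capture: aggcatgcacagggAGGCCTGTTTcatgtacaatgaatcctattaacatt

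Olfr491 reporter: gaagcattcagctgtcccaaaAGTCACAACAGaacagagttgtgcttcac

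Olfr477 capture: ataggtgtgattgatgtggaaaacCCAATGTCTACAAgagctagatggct

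Olfr477 reporter: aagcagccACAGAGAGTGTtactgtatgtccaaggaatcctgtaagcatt

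Olfr478 capture: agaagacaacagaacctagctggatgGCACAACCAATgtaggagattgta

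Olfr478 reporter: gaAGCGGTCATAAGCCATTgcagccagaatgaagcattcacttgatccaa

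Olfr298 capture: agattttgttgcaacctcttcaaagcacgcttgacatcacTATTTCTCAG

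Olfr298 reporter: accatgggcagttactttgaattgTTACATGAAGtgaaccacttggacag

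Olfr1346 capture: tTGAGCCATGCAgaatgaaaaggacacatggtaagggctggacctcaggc

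Olfr1346 reporter: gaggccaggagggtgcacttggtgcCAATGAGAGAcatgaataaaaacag

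Olfr539 capture: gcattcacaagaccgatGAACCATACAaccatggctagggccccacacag

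Olfr539 reporter: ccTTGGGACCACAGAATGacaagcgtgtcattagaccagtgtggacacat

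The longest shared run was 17 bases for Olfr478, with Olfr1301, and 11 bases for Olfr491, with Olfr713. Over the 42 genes it ranged from 10 to 23 bases with a median of 12 bases, against a median length of 100 bases for the pair. Only probes were compared with probes, so binding of a probe to the RNA of a related gene was not assessed. Runs of 20 bases or more occurred in Olfr535, which shares 23 bases with the class I gene Olfr667, and in Olfr494, which shares 20 bases with Olfr247.

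RefSeq (GRCm38.p6) gives a gene start, and so a window from 250 bases before to 50 bases after it, for 35 of the 42 genes. Olfr1344, Olfr309, Olfr308, Olfr305, Olfr294, Olfr510 and Olfr535 have no entry. The homeodomain core, searched as TAATTA or TAATGA on both strands, occurred in 9 of 20 Ptel windows (45.0%), in 1 of 15 unmarked windows, that of Olfr520, and in 13.9% of the 32851 windows of the table. The Olf/Ebf core, searched as CCCNNGGG, occurred in 2 of 35 windows (5.71%) and in 13.7% of all windows. These are matches of letters, not known sites. Where a RefSeq entry holds only the coding part of a gene, its window lies around the coding start and need not cover the promoter. How many of the entries are of that kind was not checked, so the shares are not a comparison of promoters. Stretches of 60 bases on the gene's strand are shown for 4 Ptel genes whose counts are described below and for Olfr518, the neighbour of Olfr517, with every match of the core in capitals.

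Olfr478, chr7:108034063-108034122, reverse strand: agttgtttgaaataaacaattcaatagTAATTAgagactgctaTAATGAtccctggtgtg

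Olfr481, chr7:108080667-108080726, forward strand: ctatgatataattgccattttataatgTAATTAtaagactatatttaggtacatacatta

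Olfr491, chr7:108316683-108316742, forward strand: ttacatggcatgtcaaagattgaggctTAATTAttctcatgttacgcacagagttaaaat

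Olfr517, chr7:108869297-108869356, reverse strand: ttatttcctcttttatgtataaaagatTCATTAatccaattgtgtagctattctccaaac

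Olfr518, chr7:108881691-108881750, reverse strand: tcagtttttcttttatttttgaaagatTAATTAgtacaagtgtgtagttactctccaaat

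The summed OR counts of a lane ranged from 618163 to 1013430 over the 30 lanes. Counts were scaled on the positive controls and then on 5 reference genes that mature olfactory neurons express (Omp, Gnal, Cnga2, Ano2 and Adcy3). All 5 were read in every lane, with Omp between 104400 and 113698 scaled counts. Adcy3, Ano2 and Cnga2 varied more in proportion to their level, and Adcy3 and Ano2 differed between groups. Adcy3 gave 79984 to 87658 (MK29 wild type), 90640 to 93369 (MK37 wild type) and 94689 to 98754 (wild type 129). For Ano2 the limits were 7195 and 7397 (MK29 wild type), 5982 and 6400 (wild type 129), and 6413 and 7358 (ΔOlfr7Δ). Every ΔOlfr7Δ lane thus held more scaled Ano2 than any wild-type 129 lane. The ΔOlfr7Δ median of Cnga2 was 108966.5, below the 115274.5 of wild type 129. Scalings that do not use these reference genes are set beside the main one in the comparisons below. Beyond that, the part of the reference genes in the differences described here was not tested. The background of a lane, the mean plus 2 SD of its negative controls, lay between 32.4 and 56.2 scaled counts. The labels of the mutants were checked on the genes they name: Olfr1507, next to the H element, was at 52.8 scaled counts or less in the ΔHxΔP mice and at 4995 or more in the mixed-background wild type, and 26 of 65 chromosome 9 OR genes were at background in all 6 ΔOlfr7Δ mice while well above it in all 6 wild-type 129 mice. Genes were tested in a comparison when their wild-type median was at least 100 counts above background, and a gene was called at an adjusted p under 0.05 from limma over all OR genes tested. Counts of different probes are not set against each other.

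The first comparison sets mice that lack the H and P elements against wild type for the chromosome 7 class II genes outside the P cluster. In mice of mixed background the loss of the P element cannot be told apart from the strain origin of the linked stretch of chromosome 7. Of 39 genes tested in the 6 ΔHxΔP mice against the 12 mixed-background wild-type mice, 4 rose and 5 fell. Of all 557 OR genes tested, 10.2% were called higher and 23.9% lower (34.1% in either direction). The share of the tested chromosome 7 genes was 10.3% higher and 12.8% lower. Among the 21 Ptel genes 3 rose and 3 fell, with a median log2 difference of -0.02, and among the 18 unmarked genes tested 1 rose and 2 fell, with a median of -0.05. The median of all OR genes was -0.06. Under TMM scaling the medians were 0.05, 0.02 and 0.01. In the P cluster itself 17 of 22 genes fell and the median was -0.65.

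Olfr491, a MOR204 receptor gene, had the largest difference of the 42. Its scaled counts in the ΔHxΔP mice ran from 813 through a median of 1030 to 1147. The MK29 wild type gave 1235, 1443 and 1584 as its lowest, median and highest value, and the MK37 wild type 1466, 1589 and 1774. Every ΔHxΔP mouse thus lay below every mixed-background wild-type mouse, and the log2 difference was -0.61 (SE 0.084, adjusted p = 8.1e-06). Against the wild type of the same cartridge alone it was -0.52 (adjusted p = 0.000746). Of the wild-type 129 mice only the lowest, at 1116, lay within the ΔHxΔP range. The others, at 1160 to 1246, and the ΔOlfr7Δ mice, at 1192 to 1401, lay above it.

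Olfr477, also of MOR204 and the nearest to the P cluster of the Ptel genes read in all lanes, fell as well. It was at 622, 670 and 765 scaled counts in the lowest, median and highest ΔHxΔP mouse. The MK29 wild type ran from 859 through 916 to 1011 and the MK37 wild type from 905 through 948 to 1043. Again the groups did not overlap, with a log2 difference of -0.46 (SE 0.063, adjusted p = 8.1e-06), or -0.43 within MK29 (adjusted p = 0.000817). The wild-type 129 mice (545 to 636) and the ΔOlfr7Δ mice (528 to 646) had lower counts of Olfr477 than the mixed-background wild type, and the ΔHxΔP range overlapped theirs.

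The third gene whose groups did not overlap was the unmarked Olfr298 (MOR219-4). The ΔHxΔP mice ran from 1180 through a median of 1267 to 1308, the MK29 wild type from 1361 through 1604 to 1782, and the MK37 wild type from 1421 through 1680 to 1962. The log2 difference was -0.38 (SE 0.075, adjusted p = 0.000613), and -0.32 within MK29 (adjusted p = 0.00548). The 3 genes without overlap were all lower. Of all OR genes tested 7.9% did not overlap and were lower, a share that includes genes of the H and P clusters. None of the 39 stood clear above the wild type, where 1.26% of all OR genes did.

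Of the genes that rose, Olfr1336 (MOR103-7), a proximal gene, went from a mean of 3299 ± 178 (SD, n = 12) to 3798 ± 296 (SD, n = 6) scaled counts, a log2 difference of 0.20 (adjusted p = 0.00575). Olfr517, a MOR268 gene, ranged from 189 through 259 to 296 in the ΔHxΔP mice and from 159 to 256 over both wild-type groups, with a log2 difference of 0.37 (adjusted p = 0.0211). Without ΔHxΔP mouse 6 Olfr517 was no longer called. The calls of 4 further genes were less stable: Olfr478 (0.30 on the log2 scale), Olfr506 (0.18), Olfr479 (-0.20) and Olfr1344 (-0.19) were all lost when only the wild type of MK29 served as control, with differences of 0.18, 0.20, -0.11 and -0.18. The ΔHxΔP group held 1 female of 6 mice and the wild types of MK29 and MK37 held 3 and 4, and with sex as a covariate the calls of Olfr479 and Olfr1344 were lost.

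The 5 Ptel genes nearest to the P cluster did not move one way. In order of position from the P cluster, Olfr473 had a log2 difference of 0.02 (95% interval -0.19 to 0.23), Olfr477 fell, Olfr478 rose, Olfr479 fell and Olfr480 had a difference of 0.06 (95% interval -0.26 to 0.37). The last of these was at 221 to 381 scaled counts in the ΔHxΔP mice, 258 to 409 in the wild type of MK29 and 206 to 268 in that of MK37, so the difference of Olfr480 was -0.19 against MK29 and 0.30 against MK37, neither of them called. Over the 21 Ptel genes the rank correlation of the log2 difference with position was 0.29, a description across genes that share their lanes.

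The differences of the 39 genes ran from -0.61 to 0.37 on the log2 scale. With the fold change thresholds of the study's tTREAT test, at an unadjusted p of 0.01, none of the 39 genes was called at a threshold of 1.5 or of 1.3. Few OR genes were called at all: of 557 tested, 1 was higher and 22 lower at 1.5, and 3 were higher and 29 lower at 1.3. With the unadjusted p set at 0.05 the counts among the 39 genes were 0 and 1, the latter being Olfr491. The limma test against no change called 9 of them. The limma count also depended on single mice: without ΔHxΔP mouse 6 it was 1 gene higher and 9 lower, without ΔHxΔP mouse 5 it was 2 higher, and without wild-type mouse 1 or 4 of MK29 it was 9 or 8 lower.

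**Figure D1:**
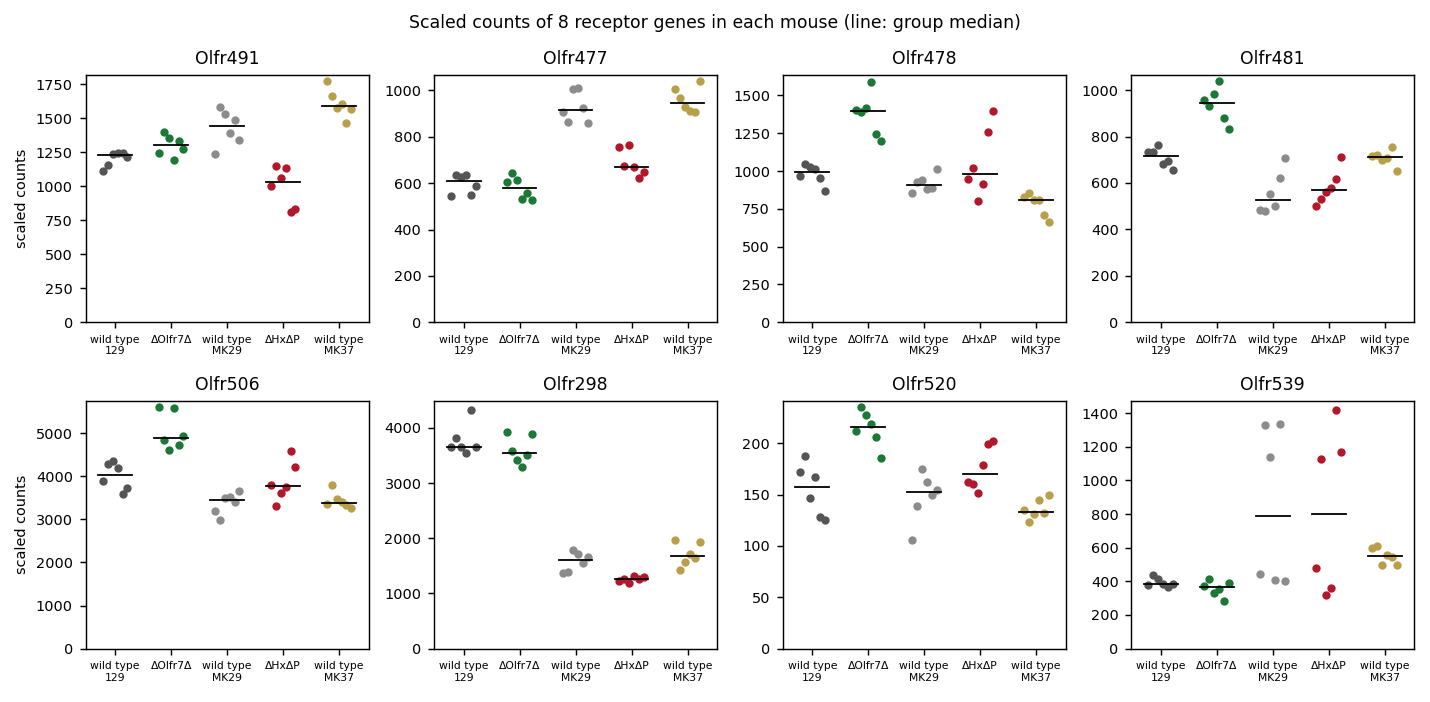
Scaled counts (linear axis from 0) of Olfr491, Olfr477, Olfr478, Olfr481, Olfr506, Olfr298, Olfr520 and Olfr539 in each of the 6 mice of the 5 groups, 1 point per mouse with a line at the group median. In the panels of Olfr491, Olfr477 and Olfr298 the ΔHxΔP points lie below all points of the MK29 and MK37 wild type, and in that of Olfr539 the MK29 wild-type and ΔHxΔP points fall apart into low and high mice.

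The engineered deletion of the ΔOlfr7Δ mice is on chromosome 9 and not on chromosome 7. The second comparison sets these mice against the wild-type 129 mice. The labels give the latter as 129SvEvTac of Charles River Laboratories and not as a companion wild type. The deletion therefore cannot be told apart from the origin of the mice. Of 40 genes tested against the wild-type 129 mice, 12 rose and 1 fell. Over all 552 OR genes tested 23.4% were called higher and 12.1% lower. The 12.1% includes the genes of the deleted Olfr7 cluster. Most of the genes that rose were Ptel genes: 9 of 19 tested rose (47.4%) and none fell, and 18 of the 19 differences were above 0, with a median of 0.23 on the log2 scale. The count above 0 was 16 under TMM, 16 under the median of ratios and 19 on the positive controls alone. The unmarked genes had 3 higher and 1 lower of 21, with a median of 0.09, and all OR genes had a median of 0.06. Scaling on the positive controls alone raised the median of all OR genes by 0.18, and the Ptel median then stood at 0.41 beside 0.24 for all OR genes. Under the other scalings, TMM and the median of ratios, the Ptel medians were 0.21 and 0.17 beside 0.05 and -0.00. The P cluster, which the Ptel genes flank, had 4 of 22 genes higher and 1 lower with a median of 0.05, and the chromosome 7 class I genes had 0 of 85 higher and 10 lower with a median of -0.06.

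The Ptel gene with the largest rise was Olfr478 (MOR204-13). The wild-type 129 mice ran from 871 through a median of 991 to 1049 scaled counts and the ΔOlfr7Δ mice from 1198 through 1399 to 1592. All 6 mutants lay above all 6 wild types, with a log2 difference of 0.48 (SE 0.072, adjusted p = 4.1e-06). Olfr481 (MOR204-39), which stands a few genes further along, ran from 657 through 714 to 762 in the wild type and from 834 through 944 to 1039 in the mutants, again without overlap (log2 difference 0.40, SE 0.07, adjusted p = 4.98e-05).

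Olfr506 (MOR204-23) gave 3593 to 4360 scaled counts with a median of 4040 in the wild-type 129 mice and 4618 to 5623 with a median of 4896 in the ΔOlfr7Δ mice, a log2 difference of 0.33 (adjusted p = 0.000208). Olfr508 (MOR204-6) rose from 760 through 948 to 990 in the wild type to between 1066 and 1330 with a median of 1145 in the mutants (0.34, adjusted p = 0.000791). For both genes the groups stood apart. Olfr494 (MOR204-10) ran from 529 through 553 to 635 in the wild type and from 605 through 684 to 803 in the mutants, so that its groups overlapped at the edge (0.31, adjusted p = 0.00258). In all, 6 of the 19 Ptel genes tested were higher without overlap, against 11.1% of all OR genes tested. Of the 9 Ptel genes that rose 8 were MOR204 genes, a family that made up 14 of the 19 Ptel genes tested. All MOR204 genes among the 42 are Ptel genes, so family and place cannot be told apart. Of all OR genes 23.4% were called higher.

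Olfr520 (MOR101-1), which lies alone between the other groups, is read close to the background. Its scaled counts were 125 to 188 with a median of 157 in the wild-type 129 mice and 186 to 235 with a median of 216 in the ΔOlfr7Δ mice, a log2 difference of 0.48 (SE 0.114, adjusted p = 0.00135). Of the distal genes Olfr522 rose by 0.23 on the log2 scale, a call kept under every alternative other than tTREAT. Olfr525 had a difference of 0.17, called in 7 of the 12 fits that left out a mouse and not under the median of ratios. The single gene that fell was the proximal Olfr1350 (MOR222-3), from 990 to 1175 in the wild type to between 744 and 929 in the mutants, a log2 difference of -0.30 (adjusted p = 0.00117). None of the 40 genes passed tTREAT at a fold change threshold of 1.3, at an unadjusted p of 0.01 or of 0.05. Of all 552 OR genes tested it called 1 higher and 37 lower at 0.01.

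The ΔOlfr7Δ lanes had more OR counts than the wild-type lanes of the same cartridge, 833993 to 1013430 against 618163 to 855414, before scaling, and the wild-type group held 4 females to 2 in the mutant group. The part of lane depth in the Ptel differences was not tested. With sex as a covariate the count of calls stayed within 1.5 times of its value.

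**Figure D2:**
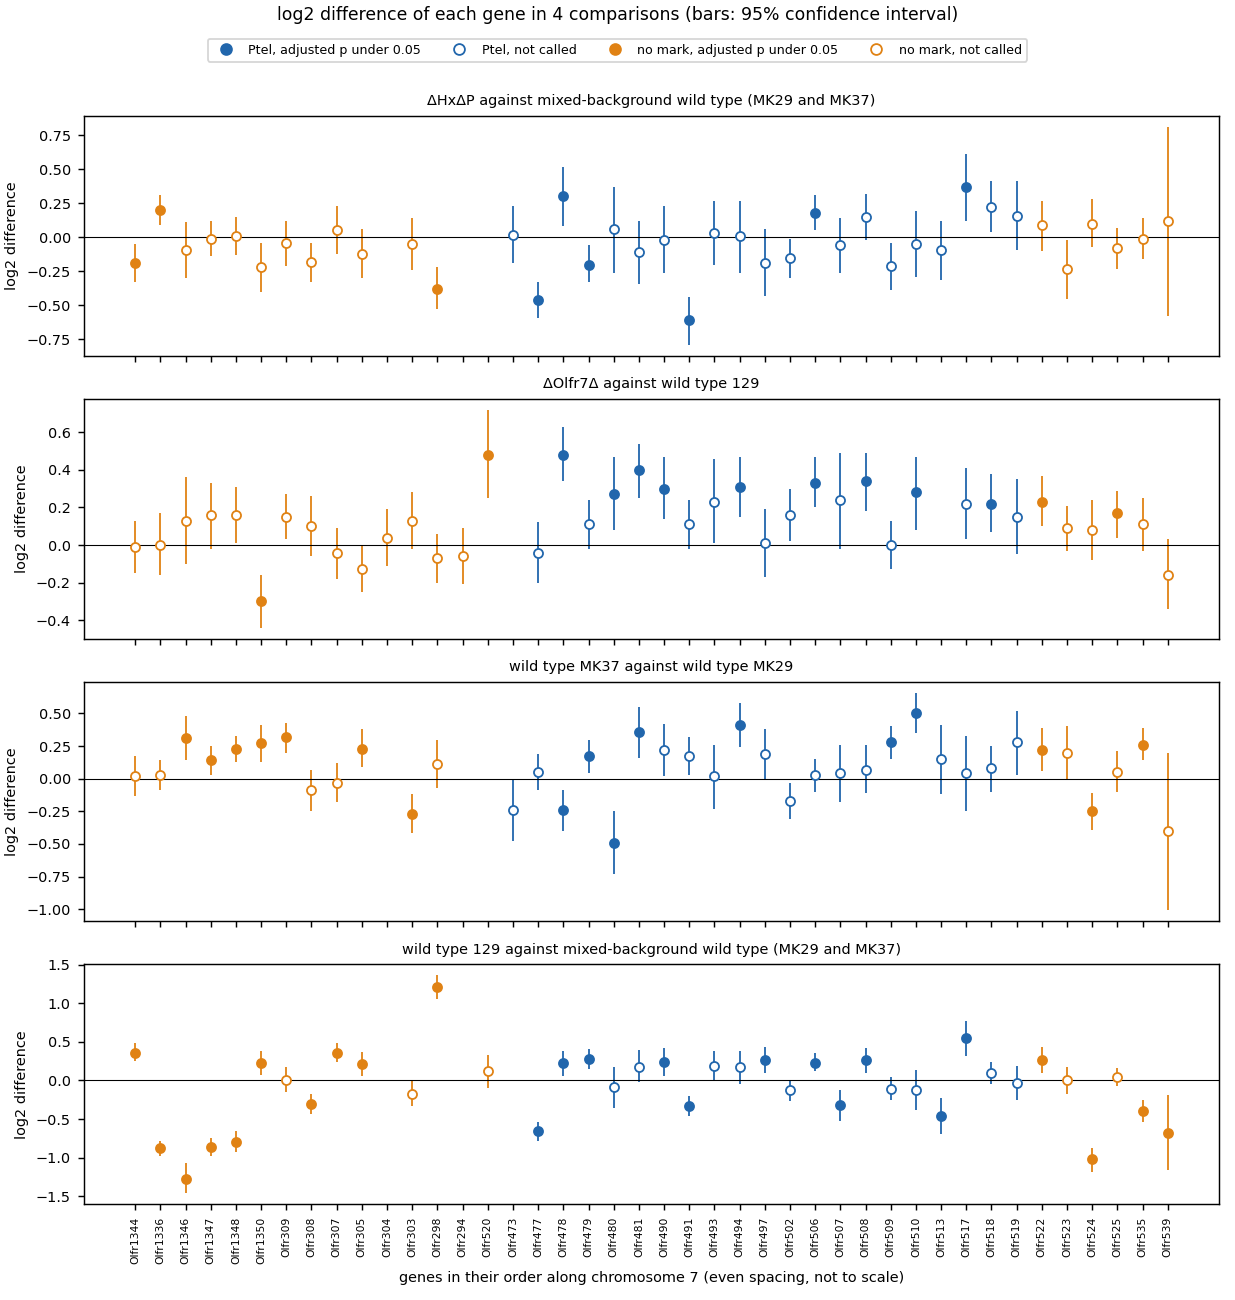
log2 difference of each gene (points, with 95% confidence intervals) in the 4 comparisons, with the genes in their order along chromosome 7 at even spacing. Filled points have an adjusted p under 0.05, blue marks Ptel genes and orange genes without a mark. In ΔOlfr7Δ against wild type 129, 18 of the 19 blue points lie above 0, and in wild type 129 against mixed-background wild type the points farthest from 0 are orange.

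The third comparison sets the wild type of MK37 against that of MK29, both without the engineered deletions. They are companion wild types of different strains, of the same mixed background, and differ in colony and cartridge. The MK37 group held 4 females and the MK29 group 3. The strain origin of the OR genes in these mice was not tested, so genotype is held fixed only for the deletions. Of 39 genes tested 13 were higher in MK37 and 4 lower, against 29.3% higher and 10.8% lower of all 557 OR genes tested. In either direction 17 genes were called, 7 Ptel and 10 unmarked, against 40.0% of all OR genes. The medians were 0.08 for the Ptel genes, 0.13 for the unmarked and 0.10 for all OR genes, and TMM moved that of all OR genes to 0.01 and called 8 genes higher and 6 lower. The differences between these wild-type groups spanned -0.49 to 0.50 on the log2 scale.

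Olfr510 (MOR204-34) differed most, with 310 to 383 scaled counts and a median of 342 in MK29 and 459 to 517 with a median of 483 in MK37, a log2 difference of 0.50 (SE 0.073, adjusted p = 5.76e-05). Olfr480, the next in size, went the other way, from 258 through 340 to 409 in MK29 to 206 through 246 to 268 in MK37 (-0.49, SE 0.113, adjusted p = 0.00239). The groups stood apart for Olfr510 and overlapped for Olfr480. Olfr494 was at 360 to 482 in MK29 and 544 to 602 in MK37 (0.41, adjusted p = 0.000674). Olfr481 was at 478 to 706 in MK29 and 652 to 756 in MK37 (0.36, adjusted p = 0.00574).

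Among the unmarked genes Olfr309 (MOR251-4P) ran from 8748 through 10019 to 10749 in MK29 and from 11692 through 12347 to 12965 in MK37, without overlap (0.32, adjusted p = 0.000254). Olfr1346 (MOR103-6) was at 1339 to 1508 in MK29 and 1373 to 2093 in MK37 (0.31, adjusted p = 0.0058), a call lost under TMM and the median of ratios. Of the 6 proximal genes 4 were called higher in MK37, where 29.3% of all OR genes were and the median of all OR genes was 0.10, and 2 of these, Olfr1348 (0.23) and Olfr1350 (0.27), were called under every alternative run for that comparison and in each fit that left out a mouse.

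The fourth comparison sets the 6 wild-type 129 mice against the 12 mixed-background wild-type mice. Of 39 genes tested 13 were higher in 129 and 12 lower, shares of 33.3% and 30.8% beside 33.3% and 37.3% of all 549 OR genes tested. The Ptel genes had 7 higher and 4 lower of 20, the unmarked genes 6 higher and 8 lower of 19. The Ptel split turned with the scaling, to 2 higher and 5 lower on the positive controls alone and 11 higher and 4 lower under TMM, and that of the unmarked genes was 3 higher and 9 lower, and 6 higher and 8 lower. The differences of the unmarked genes spanned -1.27 to 1.21 on the log2 scale and those of the Ptel genes -0.66 to 0.55, and 10 of 19 unmarked genes but 1 of 20 Ptel genes did not overlap between the groups. Over all OR genes tested 38.3% did not overlap. No test was made of Ptel against unmarked genes, since genes of one list share mice and lanes.

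Among the 42 genes, the lowest counts in 129 relative to the mixed background were those of MOR103 genes. Olfr1346 was at 569 through 614 to 764 scaled counts in the wild-type 129 mice and at 1339 or more in every mixed-background wild-type mouse, a log2 difference of -1.27 (SE 0.094, adjusted p = 9.94e-11). Olfr524 (MOR103-14P), in the distal group on the far side of the chromosome, was at 559 through 607 to 683 in 129 and at 1063 or more in the mixed-background wild type (-1.02, SE 0.075, adjusted p = 8.25e-11). In both genes all 129 wild types lay below the lowest mixed-background wild type.

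The 3 other proximal MOR103 genes behaved in the same way. Olfr1336 had 1677 to 1905 scaled counts in 129 and at least 2876 in the mixed background (-0.88), Olfr1347 had 929 to 1224 against at least 1717 (-0.86), and Olfr1348 had 5719 to 6730 against at least 9507 (-0.80). The ΔOlfr7Δ mice, also of 129 background, had medians of 1833, 1204 and 6996 for these genes, and the ΔHxΔP mice, of mixed background, had 3873, 1898 and 11069. For all 5 genes every mouse of 129 background, wild type or mutant, lay below every mouse of mixed background. The remaining MOR103 gene of the 42, Olfr522, was higher in 129, with 1282 to 1501 scaled counts and a median of 1340 against medians of 1013 in MK29 and 1242 in MK37 (0.26, adjusted p = 0.00449). The remaining proximal genes, Olfr1344 (MOR124-1, 0.36) and Olfr1350 (0.22), which lie at either end of the proximal MOR103 genes, were also higher in 129.

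**Figure D3:**
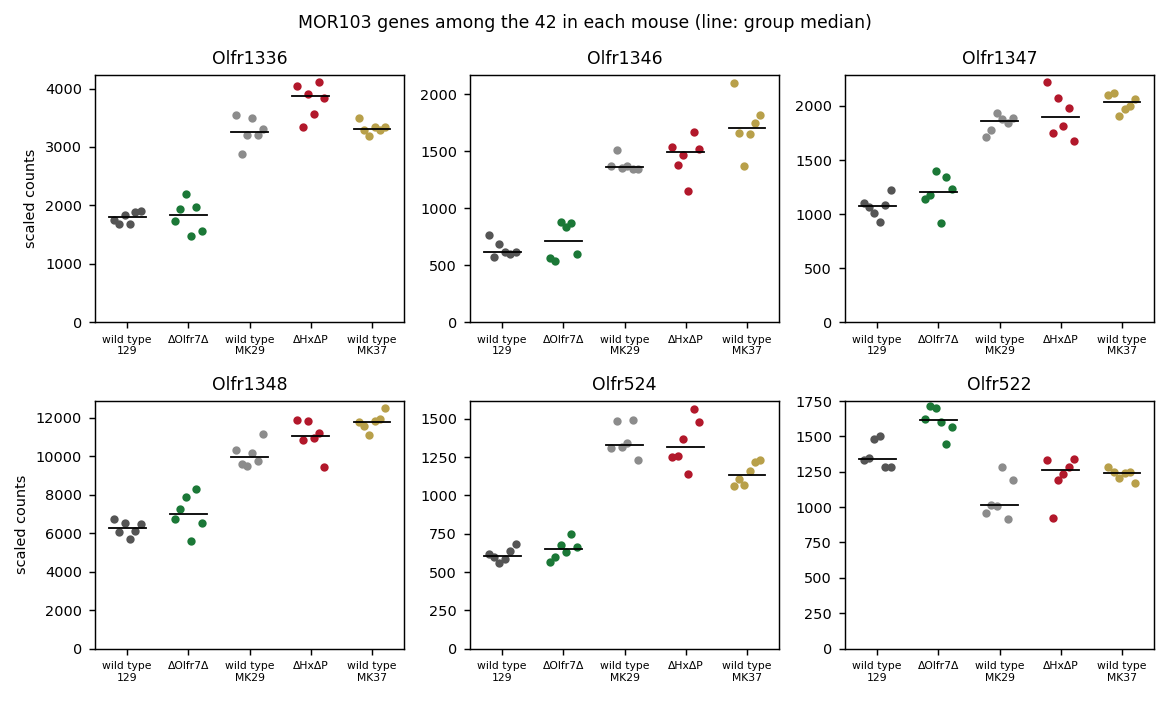
Scaled counts (linear axis from 0) of the 6 MOR103 genes among the 42 in each of the 6 mice per group, with a line at the group median. For Olfr1336, Olfr1346, Olfr1347, Olfr1348 and Olfr524 all points of the wild-type 129 and ΔOlfr7Δ mice lie below those of the 3 groups of mixed background, and for Olfr522 they do not.

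Olfr298 went the opposite way. It was at 3552 through 3655 to 4333 scaled counts in the wild-type 129 mice and at 1361 to 1962 in the 12 mixed-background wild-type mice, a log2 difference of 1.21 (SE 0.075, adjusted p = 5.41e-12) or 2.31-fold. The ΔOlfr7Δ mice, at 3283 through 3538 to 3931, lay with the 129 wild type and the ΔHxΔP mice, as given above, at the low end. The other 2 genes of its family tested here, Olfr307 (0.36) and Olfr305 (0.21, a call lost against MK37 alone), were also higher in 129, while MOR104 genes of the same stretch were not, Olfr308 being lower (-0.30).

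Among the Ptel genes, Olfr477 was lower in 129 (-0.66, adjusted p = 1.51e-09) and Olfr517 higher (0.55, adjusted p = 0.000113). Olfr491 was lower (-0.33) and Olfr478 (0.22), Olfr479 (0.28) and Olfr506 (0.23) were higher. The calls of Olfr478 and Olfr506 were lost on the positive controls alone, and that of Olfr478 also against the MK29 wild type alone. Olfr513 (MOR195-1), a gene near the count minimum, was at 102 to 168 scaled counts with a median of 139 in the wild-type 129 mice. In the mixed-background wild type it was at 149 to 253 (-0.46). Its median above background was 98 in wild-type 129, under the minimum of 100, and 135 and 163 in MK29 and MK37. Olfr513 thus entered this comparison through the mixed-background mice, and its call as lower in 129 is not used. In the ΔOlfr7Δ mice Olfr513 was at 99.1 to 137 and was not tested, as the wild-type 129 median lay under the minimum. Olfr504, the Ptel gene left out for its class I name, was at 548 to 713 in the wild-type 129 mice, 449 to 690 in ΔOlfr7Δ, 423 to 537 in the wild type of MK29, 440 to 631 in ΔHxΔP and 574 to 679 in the wild type of MK37.

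Mice of one group differed little in most of the genes. The SD of the log2 scaled counts over 6 mice had a median of 0.101 over the genes above the count minimum in the wild-type 129 mice, 0.122 in ΔOlfr7Δ, 0.143 in the wild type of MK29, 0.179 in ΔHxΔP and 0.088 in the wild type of MK37. The medians of all OR genes were 0.11, 0.131, 0.14, 0.18 and 0.122. The Ptel genes had a higher median SD than the unmarked genes in wild-type 129 (0.114 against 0.096) and ΔOlfr7Δ (0.125 against 0.117). The gap was wider in the wild type of MK29 (0.17 against 0.116) and in ΔHxΔP (0.218 against 0.171). In the wild type of MK37 the medians were close (0.089 against 0.088). These medians take no account of the level of the counts.

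Olfr539 (MOR253-4), in the distal group, was the exception, with an SD of 0.88 in the wild type of MK29 and 0.95 in ΔHxΔP. In the wild type of MK29 the 6 mice had 404, 405, 443, 1138, 1328 and 1337 scaled counts. In the ΔHxΔP mice the values were 317, 361, 478, 1128, 1168 and 1417. Both groups thus held 3 mice at 478 or less and 3 at 1128 or more, with none between. The wild-type 129 mice (369 to 440), the ΔOlfr7Δ mice (281 to 411) and the wild type of MK37 (497 to 612) were each of one kind. In the wild type of MK29 both sexes occurred among the low and the high mice. The distal gene Olfr523 (MOR104-4) lay between 1857 and 2132 in the 3 MK29 wild types with low Olfr539 and between 2611 and 2785 in the 3 others, whereas in ΔHxΔP the mice with 1128, 1168 and 1417 counts of Olfr539 had 1973, 2834 and 2326 of Olfr523 and the 3 others had 1806 to 1986. No test was made, since these mice were set apart by the counts themselves. The difference of Olfr539 between ΔHxΔP and the mixed-background wild type was 0.12 with a 95% interval from -0.58 to 0.81, too wide to read.

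After Olfr539 the genes with the largest mean SD over the 3 wild-type groups were Olfr513 (0.22), Olfr517 (0.22) and Olfr520 (0.20), all read at under 350 scaled counts in every wild-type mouse. Over these groups the SD ran from 0.16 to 0.26 for Olfr517 and from 0.11 to 0.25 for Olfr520.

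**Figure D4:**
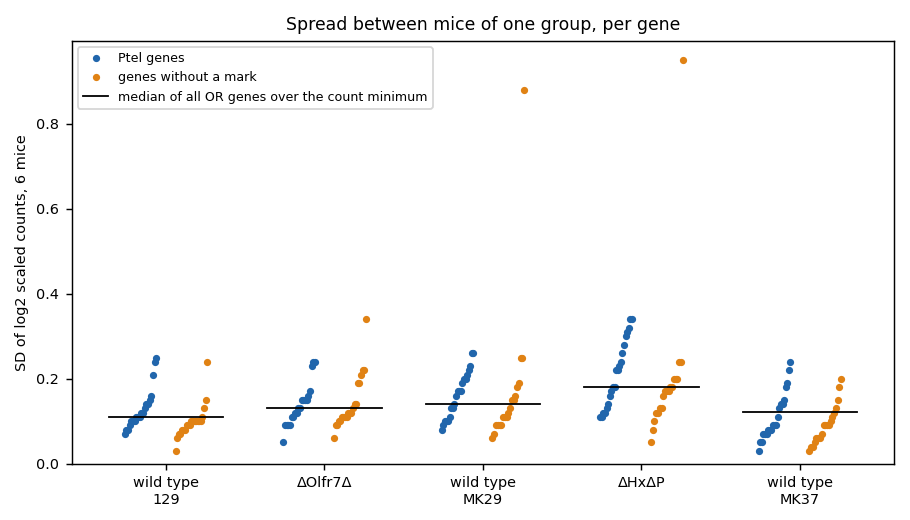
SD of the log2 scaled counts over the 6 mice of a group (y axis from 0) for each Ptel gene (blue) and each gene without a mark (orange), sorted within a group, with a line at the median over all OR genes above the count minimum. The points at 0.88 and 0.95 are Olfr539 in the wild type of MK29 and in ΔHxΔP.

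The median Pearson correlation over the 6 mice of a group was 0.61 for the 190 pairs of Ptel genes in the wild-type 129 mice and 0.54 in the ΔOlfr7Δ mice, while pairs of unmarked genes had a median of 0.04 in both and pairs of all OR genes 0.28 and 0.15. In the mixed background the Ptel pairs had medians of 0.28 in the wild type of MK29, 0.42 in ΔHxΔP and 0.20 in the wild type of MK37, with unmarked pairs at 0.25, 0.41 and 0.24 and pairs of all OR genes at 0.28, 0.33 and 0.03. These values describe 6 lanes each, all genes of a pair share the lane and its scaling factor, and no test was made.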

How the data were processed

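Raw NanoString counts of 30 lanes were deposited as 1 table by the authors, not normalised, with the probe sequences and no other unit; counting follows the instrument's own procedure and no read alignment is involved. No column of that table belonged to another series. Counts were scaled over all 30 lanes, first on the geometric mean of 6 positive controls, then on that of 5 reference genes. Background was the mean plus 2 SD of 8 negative controls and was not subtracted for tests. limma 3.58.1 (R 4.3.3, empirical Bayes with trend) was fitted on log2(scaled count + 1) for each comparison over all OR genes whose median in the control mice was 100 or more counts above background, with Benjamini-Hochberg adjustment at 0.05. log2 differences are on that scale, which understates those of low counts. The fit was tested on simulated data. Each lane is a different mouse, so the spread includes that between mice. No lanes of a group agreed within counting noise: the lowest chi-square per degree of freedom was 4.2.

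Genes are named by this rule: for ΔHxΔP every called gene and the 5 Ptel genes nearest to the P cluster; for each other comparison the 6 called genes with the largest difference; the 4 genes with the largest spread; genes under the count minimum; and Olfr504. Further genes of a family or place are named to complete its account. The genes, lists and tests were chosen with earlier results of these data known. Replicate numbers follow the order of deposit and pair no mice. Coordinates are those of the study's naming table unless GRCm38.p6 is named. The alternatives were other scalings (TMM, median of ratios, positive controls alone, only the lanes compared), background subtraction, a pseudocount of 10, no count minimum, no trend, sex or cartridge as a covariate, either wild type alone, tTREAT, and leaving out each mouse.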

Additional observations from a re-analysis of the deposited data

Results flagged for a closer look

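In each group of 6 mice the highest and lowest value of every named gene were set against the others by Dixon's ratio of gap to range at its 95% critical value. Of 113 such groups 6 passed it, and chance flags about 1 in 20. Olfr1344 was at 1032 scaled counts in wild-type 129 mouse 3 and at 1124 or more in the others. Olfr1346 was at 1508 in wild-type mouse 2 of MK29 and at 1371 or less in the others. Olfr298 was at 4333 in wild-type 129 mouse 5, with the next at 3815. Olfr494 was at 635 in wild-type 129 mouse 2, with the next at 563. Olfr508 was at 760 in wild-type 129 mouse 6, with the next at 901. Olfr513 was at 137 in ΔOlfr7Δ mouse 4, with the next at 110. The 6 values came from 6 different mice.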

How the results depend on the processing

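No named gene changed sign where it was called. Of the called genes, 4 of 9 in ΔHxΔP, 8 of 13 in ΔOlfr7Δ, 9 of 17 between the wild types of MK37 and MK29 and 17 of 25 between wild type 129 and the mixed background were called under every alternative other than tTREAT. For ΔHxΔP, with 4 genes higher and 5 lower (6 Ptel, 3 unmarked), the wild type of MK29 alone gave 2 higher, that of MK37 alone 10 lower and 6 unmarked genes called, the positive controls alone and sex as a covariate each 3 lower, and tTREAT at 1.5 and at 1.3 gave 0 in each count. For ΔOlfr7Δ, with 12 higher and 1 lower (9 Ptel, 4 unmarked), the positive controls alone gave 28 higher and 0 lower (16 Ptel, 12 unmarked), TMM 2 lower, the median of ratios 3 lower, and tTREAT at 1.3 gave 0 in each. Between the wild types of MK37 and MK29, with 13 higher and 4 lower, TMM gave 8 higher and 6 unmarked genes called, the median of ratios 8 higher and 7 lower, and the positive controls alone 1 lower. Between wild type 129 and the mixed background, with 13 higher and 12 lower, the positive controls alone gave 5 higher and 7 Ptel genes called. The calls over all OR genes moved with these settings too. For ΔHxΔP those lower went from 133 to 181 of 557 against MK37 alone. For ΔOlfr7Δ those higher went from 129 to 283 of 552 on the positive controls alone. Between MK37 and MK29 those higher went from 163 to 114 of 557 under TMM. Between 129 and the mixed background those higher went from 183 to 130 of 549 on the positive controls alone. The causes were not tested. Leaving out each mouse in turn gave, for ΔHxΔP, 1 to 5 higher, 4 to 9 lower, 3 to 7 Ptel and 2 to 6 unmarked; the lowest counts of higher and Ptel genes came without ΔHxΔP mice 6 and 5, and the highest of lower and unmarked genes without ΔHxΔP mouse 6 and wild-type mouse 1 of MK29. For ΔOlfr7Δ it gave 8 to 14 higher, 1 lower throughout, 6 to 10 Ptel and 3 to 6 unmarked. For MK37 against MK29 it gave 10 to 14 higher, 4 to 5 lower, 6 to 9 Ptel and 8 to 10 unmarked. For 129 against the mixed background it gave 13 to 14 higher, 12 to 13 lower, 11 to 12 Ptel and 14 to 15 unmarked. The alternatives with edgeR and DESeq2 were not run. Genes near the background, such as Olfr513 and Olfr520, are limited by their low counts.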
